A study of Mus musculus with 2 samples.

Results

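The 10 genes of the WNT pathway followed here were all found in a table of 46983 genes by matching Ensembl identifiers to symbols in the GENCODE annotation of GRCm38. They are the ligand genes Wnt3 and Wnt8a, the secreted antagonist gene Dkk1, the R-spondin receptor gene Lgr5, the feedback and target genes Axin2, Sp5 and Rnf43, and the TCF/LEF transcription factor genes Lef1, Tcf7 and Tcf7l1. Transcripts were counted in 2 RNA sequencing libraries. Both were made from 46C cells, mouse embryonic stem cells in which green fluorescent protein reports on Sox1. The knockdown library (genotype label: linc1557 knockdown) is of cells that carry an shRNA directed at linc1557, a long noncoding RNA, and the control library is of cells with a control shRNA. Hairpins were carried by the pLKO.1-TRC vector, and in both cases infected cells were selected with puromycin and picked as stable clones, so that a library can represent few clones. The growth protocol places the cells on feeder cells in serum with LIF, the cytokine that maintains self-renewal, and the titles of both libraries read mESC. The target linc1557 could not be matched to a row of the table, so the knockdown itself was not analysed here. Each group has 1 library, so the differences have no replicate check and carry no test or p-value. A call of lower or higher required a 2-fold or larger difference together with an exact 95% counting interval (Clopper-Pearson) that left out a ratio of 1. Every interval below covers counting error alone.

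WNT ligands bind Frizzled receptors together with LRP5 or LRP6. This stops the destruction complex, in which AXIN, APC and GSK3 mark beta-catenin for degradation, and beta-catenin then enters the nucleus and binds TCF/LEF factors on DNA. AXIN2, the ubiquitin ligase RNF43, LGR5, DKK1 and SP5 are encoded by genes that the pathway itself switches on in many tissues, and most of them feed back on it. In mouse embryonic stem cells TCF7L1 acts mainly as a repressor of naive pluripotency genes, whereas TCF7 and LEF1 act more often as activators. In the embryo WNT3 is needed for the primitive streak to form, and Wnt8a is transcribed in the posterior epiblast and streak.

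7 of the 10 genes were lower in the knockdown library, none was higher and 3 were not called. Over all genes that reached 1 CPM (the count scaled to library size) in either library, 9.48% were called lower and 4.68% higher. The 7 fell into a steep and a moderate set. Wnt3, Wnt8a, Dkk1, Lgr5 and Sp5 were 10.1-fold or more lower and had at most 15 knockdown counts, whereas Lef1 and Tcf7l1 were 2.77-fold and 2.99-fold lower and kept 262 and 153 counts. Axin2, Rnf43 and Tcf7 were not called. All 10 log2 ratios lay below 0, with a median of -2.46 against 0.02 for all genes entered. 9 of the 10 passed the 1 CPM filter, and Rnf43 was the gene that did not. Wnt3, Wnt8a, Dkk1, Lgr5 and Sp5 passed it through the control library alone, with at most 0.585 CPM in the knockdown library. The members were also chosen with earlier results of these data known, so nothing is read from how many were called.

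The sequence in front of these genes is shown for the steepest falls that have a RefSeq start in the table used (Wnt3, Sp5, Dkk1) and for Axin2, which was not called. TCF/LEF factors bind sequences related to CTTTG followed by A or T bases. The 250 bases before each RefSeq start (GRCm38.p6) were searched on both strands for the motif CTTTGAT, for its variant CTTTGAA, and for the further variants CTTTGTT and also CTTTGTA, and matches are in capitals. A promoter was found for 8 of the 10 genes, with 13 starts in all, and Wnt8a and Lgr5 had none there. The stretches of Sp5 (chr2:70474673-70474922), Wnt3 (chr11:103773925-103774149) and Axin2 (chr11:108920099-108920348) lie on the plus strand and end before the first annotated exon base. The Dkk1 stretch is a window of 27 bases on the minus strand (chr19:30549597-30549623) that lies inside an annotated Dkk1 exon, since GENCODE starts the gene further upstream, at base 30549665, than RefSeq.
Sp5: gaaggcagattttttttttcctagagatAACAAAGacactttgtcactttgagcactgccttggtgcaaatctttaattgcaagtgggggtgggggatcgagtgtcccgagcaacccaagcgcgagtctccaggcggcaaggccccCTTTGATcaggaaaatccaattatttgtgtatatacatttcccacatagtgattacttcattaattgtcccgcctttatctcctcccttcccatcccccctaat
Wnt3: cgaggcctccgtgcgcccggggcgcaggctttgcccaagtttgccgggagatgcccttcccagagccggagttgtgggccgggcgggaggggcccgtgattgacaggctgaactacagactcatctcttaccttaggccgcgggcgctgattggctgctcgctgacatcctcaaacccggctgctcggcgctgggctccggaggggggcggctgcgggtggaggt
Axin2: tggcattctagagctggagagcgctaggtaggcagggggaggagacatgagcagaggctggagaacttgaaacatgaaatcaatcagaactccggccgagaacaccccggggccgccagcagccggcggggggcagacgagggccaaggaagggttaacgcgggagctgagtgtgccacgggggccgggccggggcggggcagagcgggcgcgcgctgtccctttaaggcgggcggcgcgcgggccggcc
Dkk1: cctcccaaagCTTTGAAatcccatccc
In Sp5 there were 2 matches, CTTTGTT on the reverse strand (read as AACAAAG) at bases -222 to -216 and CTTTGAT at -104 to -98 from the start. Dkk1 had 2 as well, CTTTGAA at -117 to -111 and CTTTGTT at -98 to -92 from the RefSeq start. Both lie inside the annotated Dkk1 exon, downstream of the GENCODE start. Wnt3 and Axin2 had 0 matches in the 250 bases, as had Tcf7, Tcf7l1 and Rnf43 at all their starts, and Lef1 had 1 match, CTTTGTA, at 1 of its 4 starts. Among 32817 promoters of the same length, 14.8% held at least 1 of the 4 motifs and 1.43% held 2 or more. A match is a run of letters and not evidence of binding, and these windows leave out distant enhancers.

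Both ligand genes were close to the limit of detection in the knockdown library. Wnt3 (ENSMUSG00000000125, chromosome 11, 103774150 to 103817957, plus strand) was read 3 times with the knockdown and 115 times with the control hairpin, which made it 40.7-fold lower (13.6 to 200.4). Wnt8a (ENSMUSG00000012282, chromosome 18, 34542313 to 34548273, plus strand) had 7 counts against 142, a 21.6-fold fall (10.2 to 54.6). The fall of Wnt8a relative to that of Wnt3 could not be ranked at this depth, since the ratio of the 2 ratios was 1.89 with an interval from 0.419 to 11.5. Per kilobase of deposited gene length, the control library held 1.55 CPM of Wnt3 (1.28 to 1.86) and 3.37 of Wnt8a (2.84 to 3.98). In the knockdown library these levels were 0.0381 (0.00785 to 0.111) and 0.156 (0.0629 to 0.322) CPM per kb.

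Dkk1 encodes a secreted protein that blocks the LRP5 and LRP6 co-receptors. It lies on chromosome 19 from 30545863 to 30549665 on the minus strand (ENSMUSG00000024868), and it was the member without a single count in the knockdown library, against 146 in the control. Set at a floor of 3 counts in the knockdown library, it was at least 51.7-fold lower. The exact 95% counting interval, which is two-sided and allows more than the floor, began at 41.5-fold. Its control level of 2.49 CPM per kb (2.11 to 2.93) was near that of Axin2 at 2.51 (2.25 to 2.79).

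Lgr5, the R-spondin receptor known as a stem cell marker of the gut, lies on chromosome 10 from 115450311 to 115587780 on the minus strand (ENSMUSG00000020140). With 2 counts against 89 it was 47.3-fold lower (12.7 to 396). Because its deposited length of 10264 bases is the longest among the members, those 89 counts amounted to 0.36 CPM per kb (0.289 to 0.442), at percentile 5.80 of the entered genes. Its paralogue Lgr4, named here after its values were seen, had 2188 against 2514 counts and was not called.

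Sp5, a zinc finger factor induced directly by beta-catenin, lies on chromosome 2 from 70474923 to 70477729 on the plus strand (ENSMUSG00000075304). Its 15 counts against 142 made it 10.1-fold lower (5.90 to 18.4). Axin2 (ENSMUSG00000000142, chromosome 11, 108920349 to 108950783, plus strand), the scaffold gene most often used as a readout of beta-catenin activity, had 309 against 333 counts. Its fold difference of 1.14 lower had an interval from 0.978 to 1.34 that included 1. The 2 targets therefore differed from each other within the same pair of libraries, with a ratio of Axin2 over Sp5 that was 8.76 times as high in the knockdown library (5.0 to 16.4), a quantity that does not depend on the scaling between libraries. The same ratio of Axin2 to Lgr5 was 41.2 times as high (10.9 to 348).

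Rnf43 encodes a ubiquitin ligase that removes Frizzled receptors from the cell surface, and LGR5 bound to R-spondin opposes it. The gene (ENSMUSG00000034177, chromosome 11, 87662722 to 87735539, plus strand) had 22 against 24 counts, a 1.16-fold lower level (0.623 to 2.17). Its CPM of 0.995 in the control library lay just under the filter, and at these counts a 2-fold fall was not excluded. Znrf3, the paralogous ligase and a member of the wider list, had 464 against 499 counts. Relative to Axin2, Rnf43 changed by a factor of 0.988 (0.516 to 1.88) and Znrf3 by 1.0 (0.816 to 1.23), so no difference among these 3 feedback genes was detectable at this depth, and the interval was narrow for Znrf3 alone.

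**Figure D1:**
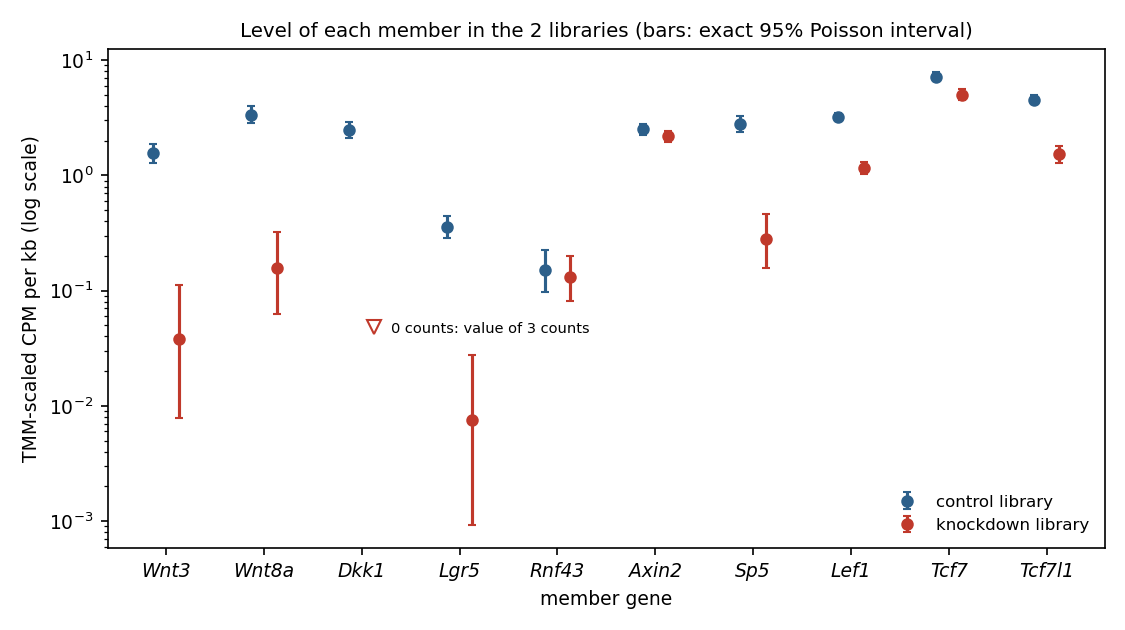
Level of each of the 10 genes in the control (blue) and knockdown (red) library, in TMM-scaled CPM per kb of deposited gene length on a log axis, with exact 95% Poisson intervals. Dkk1 had 0 knockdown counts and is drawn as an open triangle at the value of 3 counts. The intervals of the 2 libraries overlap for Axin2 and Rnf43 and are apart for the other members drawn with both intervals.

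Ordered by level per kilobase, Tcf7 stood first in the control library with 7.22 CPM per kb (6.57 to 7.91), followed by Tcf7l1 with 4.55 (4.13 to 5.01). Next came Wnt8a, Lef1 (3.22, 2.98 to 3.47), Sp5 (2.80, 2.36 to 3.30), Axin2 and Dkk1, in which each neighbour's interval overlapped the next. Wnt3, Lgr5 and Rnf43 closed the order with intervals clear of each other, Rnf43 at 0.152 (0.0972 to 0.226). In the knockdown library Tcf7 was again first with 5.03 (4.50 to 5.59), and Axin2 had moved from the sixth to the second place with 2.19 (1.95 to 2.45). Tcf7l1 (1.52, 1.29 to 1.78) and Lef1 (1.16, 1.03 to 1.31) followed with touching intervals. Sp5, Wnt8a, Rnf43, Wnt3 and Lgr5 came after them, each overlapping the next, and Dkk1 was last. Both ligands, Dkk1 and Sp5, which in the control library stood between 1.55 and 3.37 CPM per kb, were thus at most 0.279 in the knockdown library.

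3 TCF/LEF genes are members, and the fourth gene of the family, Tcf7l2, was taken from the wider list. Lef1 (ENSMUSG00000027985, chromosome 3, 131110471 to 131224356, plus strand) stood at 262 against 682 counts, 2.77-fold lower (2.39 to 3.20). Tcf7l1 (ENSMUSG00000055799, chromosome 6, 72626378 to 72789254, minus strand) stood at 153 against 431 counts, 2.99-fold lower (2.48 to 3.62). Tcf7l2 was 2.75-fold lower (2.20 to 3.46) with 110 against 285 counts. These 3 genes, 1 of them best known as a repressor in stem cells, therefore had similar ratios. Tcf7 (ENSMUSG00000000782, chromosome 11, 52252371 to 52283014, minus strand) had 338 against 457 counts, a 1.44-fold lower level (1.25 to 1.66) under the 2-fold threshold.

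The 4 genes together gave 8.20 CPM per kb with the knockdown hairpin and 16.3 with the control hairpin, 1.99 times as much in the control, and their make-up differed. Tcf7 took 61.3% of the family's summed level in the knockdown (57.9 to 64.6) and 44.2% in the control library (41.5 to 46.8), with intervals propagated from counting error. Tcf7l1 took 18.6% (15.8 to 21.3) against 27.9% (25.6 to 30.1), Lef1 14.2% (12.4 to 16.0) against 19.7% (18.2 to 21.2) and Tcf7l2 5.99% (4.85 to 7.13) against 8.27% (7.30 to 9.25). The order of the shares rests on gene length. By raw counts Tcf7 took 39.2% in the knockdown and 24.6% in the control, Lef1 30.4% against 36.8%, Tcf7l1 17.7% against 23.2% and Tcf7l2 12.7% against 15.4%, so that Lef1 led in the control library, while Tcf7 alone had its larger share in the knockdown library on either scale. Expressed as pairs, the level of Tcf7 per kb was 3.30 times that of Tcf7l1 in the knockdown library (2.72 to 4.02) and 1.59 times in the control library (1.39 to 1.81), a 2.08-fold difference (1.64 to 2.65). Tcf7 was higher relative to Lef1 by 1.92-fold (1.57 to 2.36) and relative to Tcf7l2 by 1.92-fold (1.47 to 2.51). The other 3 pairs, none with Tcf7, had intervals that included 1, as for Lef1 over Tcf7l1 at 1.08 (0.852 to 1.38). 14 pairs of genes were compared in this way in all, and 7 had intervals that excluded 1. Counts per gene do not separate the forms of Tcf7 and Lef1 that lack the beta-catenin binding end.

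**Figure D2:**
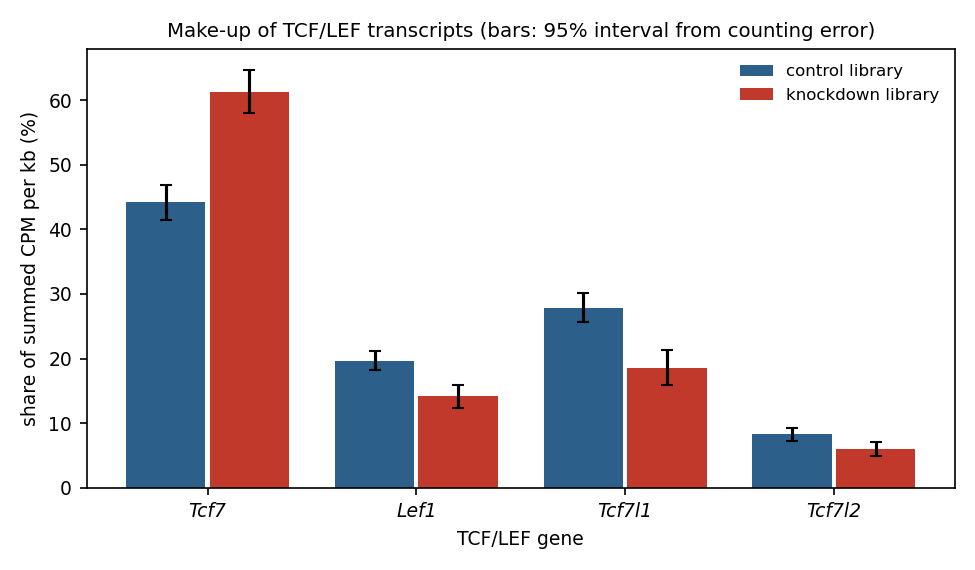
Share of each TCF/LEF gene in the family's summed level per kb, in percent, for the control (blue) and knockdown (red) library, with 95% intervals from counting error. Tcf7 takes 44.2% in the control and 61.3% in the knockdown library, and the other 3 genes take smaller shares in the knockdown library.

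Inside the spans of these factor genes the annotation holds further gene models, counted as genes of their own. Of 15 annotated genes that overlap a member or Tcf7l2, 6 had at least 10 counts over both libraries, and all 6 lie on the host's strand and share no exon bases with it. In Tcf7l1 these were Gm37969 (33 against 82 counts), Gm38114 (12 against 39) and Gm37736 (61 against 130), lower by 2.64-fold (1.74 to 4.08), 3.45-fold (1.77 to 7.24) and 2.26-fold (1.66 to 3.12). Gm42449 in Lef1 was 2.58-fold lower (1.52 to 4.52), Ppnr in Tcf7l2 4.02-fold (2.63 to 6.34) and Gm26551 in Tcf7 1.42-fold (0.629 to 3.28). Each interval contained its host's own fold difference. Reads from unspliced host transcripts and from separate transcripts cannot be told apart in such counts, and without a stated strand setting neither can reads of either strand. No overlapping gene with 10 or more counts lies within Wnt3, Wnt8a, Dkk1, Lgr5, Sp5, Axin2 or Rnf43.

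**Figure D3:**
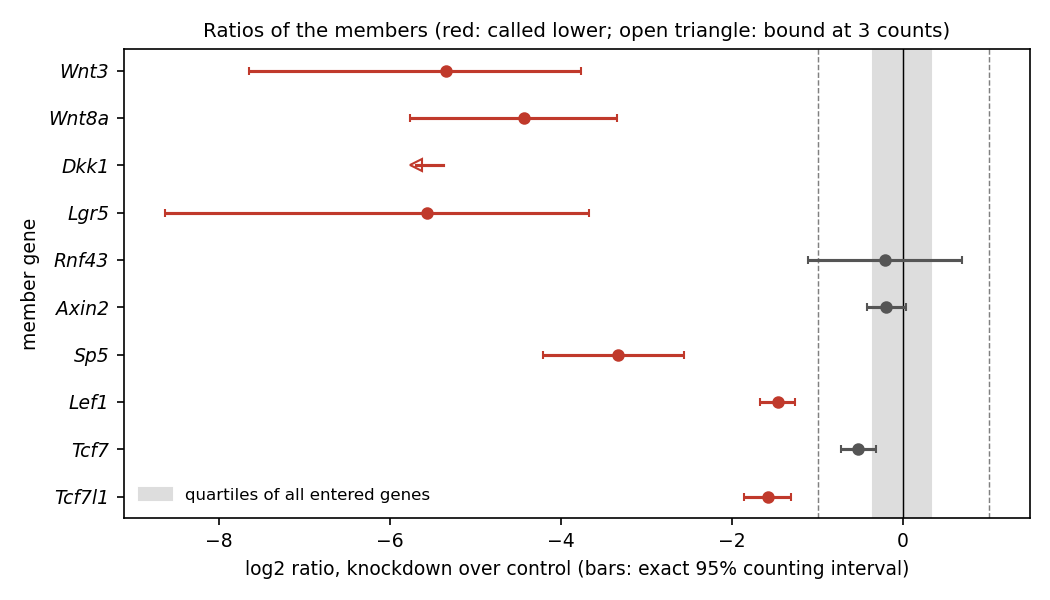
Log2 ratio of each gene, knockdown over control, with exact 95% counting intervals. Red marks the 7 genes called lower, the open triangle is the Dkk1 bound at 3 counts, the grey band spans the quartiles of all entered genes (-0.35 to 0.33) and dashed lines mark 2-fold.

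The genes next to the members were looked at as well. Genes that did not enter, such as Wnt9b on the left of Wnt3 (0 against 6 counts), were left out. The nearest 2 entered protein-coding genes on each side of the 10 members gave 40 neighbours, of which 2 were called lower and none higher, with a median log2 ratio of 0.02. Of all entered genes 9.48% were called lower and 14.2% in either direction, and nothing is read from how the neighbours compare with these shares. Both lower neighbours lay on the right of steep members. Prkg1, 14.8 kb from Dkk1, was 3.44-fold lower (2.26 to 5.36) at 30 against 97 counts, and Gad1, 75.3 kb from Sp5, 2.96-fold (2.01 to 4.43) at 37 against 103. Nsf, 3.83 kb from Wnt3, had 1284 against 1411 counts and a log2 ratio of -0.22. 4 members lie on chromosome 11, of which Wnt3 was called lower and Axin2, Rnf43 and Tcf7 were not, and the median log2 ratio of 1265 entered genes on that chromosome was 0.11.

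**Figure D4:**
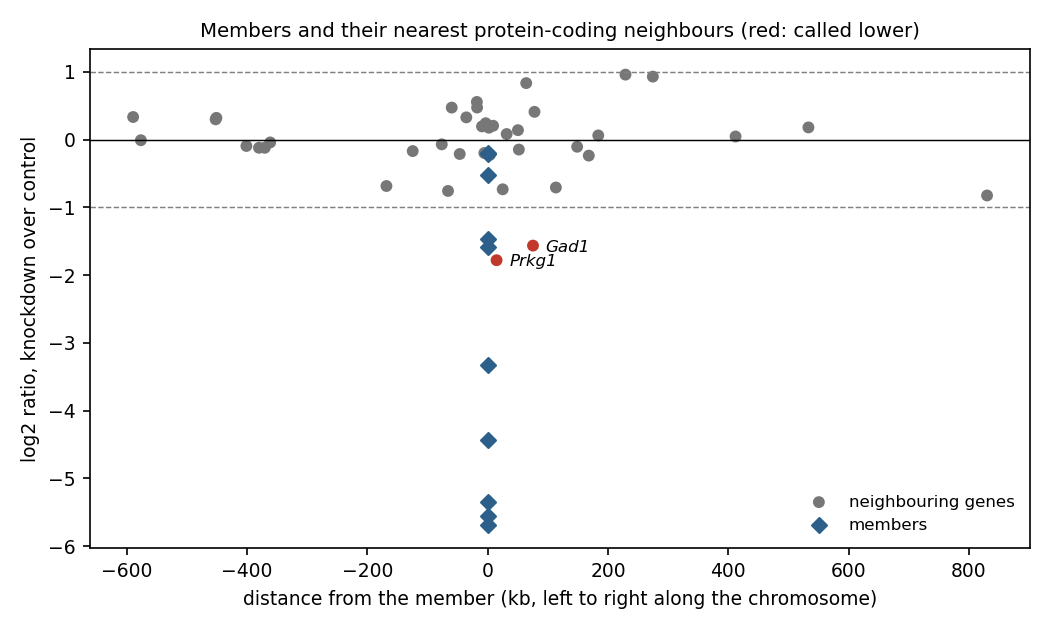
Log2 ratio, knockdown over control, of the 10 members (blue diamonds at distance 0) and of their 40 nearest entered protein-coding neighbours (circles), against distance in kb along the chromosome. Apart from Prkg1 and Gad1 (red), the neighbours lie within 2-fold.

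The other genes of the pathway were taken from 8 lists with 102 genes, of which 82 reached 1 CPM. Of these, 22 came out lower, 5 higher and 55 uncalled, and the median log2 ratio was -0.31. Over all genes entered, 9.48% were called lower and 14.2% in either direction. Of the 14 genes for beta-catenin, the destruction complex and its regulators none was called, and the median was -0.11. Ctnnb1, which encodes beta-catenin, had 10444 against 10433 counts (1.06-fold lower, 1.03 to 1.09), and Csnk1a1, the priming kinase of the complex, 8529 against 7718. Nuclear cofactor genes had 1 lower of 12, Tcf7l2, and none higher. Both lists are small, and nothing is read from how these counts compare with the share over all genes.

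Ligands, receptors and secreted inhibitors follow, beside shares of 9.48% lower and 4.68% higher over all genes entered. Some called genes passed the filter through the control library alone, among them Wnt7b, Wnt9a, Ror1, Rspo3, Rspo1, Sfrp5 and Frzb. Wnt6 passed it through the knockdown library alone. The lists were chosen with earlier results known, so nothing is read from how many were called. Of 17 further WNT ligand genes, 6 reached 1 CPM, 4 were lower and 1 was higher. Wnt7b was 12.1-fold lower (5.63 to 31.2) with 7 against 80 counts, and Wnt5a, a ligand that mostly acts without beta-catenin, was 3.22-fold lower (2.55 to 4.10) with 96 against 291. Wnt9a had 14 against 30 counts (2.28-fold lower, 1.17 to 4.65), and Wnt6 was higher at 2.29-fold (1.19 to 4.61) with 34 against 14. Wnt3a, the ligand gene closest to Wnt3 in function at the streak, had 2 against 3 counts, too few for a ratio, and is named after its values were seen.

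Of 18 secretion and receptor genes, 5 came out lower, 1 higher and 12 uncalled, and the median was -0.78. Over all genes entered, 9.48% were called lower and 4.68% higher, and nothing is read from the counts in this paragraph. Fzd8 was 7.35-fold lower (5.17 to 10.7), the WNT5A receptor gene Ror1 6.37-fold (3.95 to 10.8), Wls, which carries WNT proteins to the cell surface, 3.96-fold (3.38 to 4.65) and Fzd2 3.60-fold (2.77 to 4.74). The higher one, named after its value was seen, was Porcn, which attaches the lipid to WNT proteins, with a log2 ratio of 1.01 from 549 against 256 counts. Among 7 R-spondin, LGR and ligase genes 5 reached 1 CPM, 3 were lower and none was higher. Rspo3, an R-spondin that binds LGR receptors, was 27.6-fold lower (10.5 to 103) at 4 against 104 counts, and Rspo1 and Lgr6 were 2.51-fold (1.55 to 4.18) and 2.28-fold lower (1.43 to 3.70).

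Among 15 secreted or membrane inhibitors, 10 reached 1 CPM, 4 were lower and 1 was higher. Over all genes entered, 9.48% were called lower and 4.68% higher, and nothing is read from the counts in this paragraph. Sfrp5 was 4.94-fold (3.13 to 8.13), Frzb 4.31-fold (2.51 to 7.82), Sfrp2 2.93-fold (2.24 to 3.87) and Dkk2 2.43-fold lower (2.10 to 2.81). Dkk2 had 272 counts left in the knockdown library, where Dkk1 had 0. The higher one was Sfrp4 (331 against 139 counts, log2 ratio 1.16), named after its value was seen. Of 13 further target genes 11 reached 1 CPM, 5 were lower and 1 was higher. The higher one was Tbx6 at 2.02-fold (1.16 to 3.63) with 43 against 20 counts, which passed the filter through the knockdown library alone. Cdx1, at 43 against 23 counts, was not called, and both genes are named after their values were seen. T (brachyury), the streak factor that WNT3 induces, was 70.5-fold lower (43.2 to 124), Mixl1 26.3-fold (11.0 to 82.6), Cdx2 16.5-fold (4.19 to 142, from 2 against 31 counts) and Tnfrsf19 3.75-fold (2.82 to 5.06). T, Mixl1 and Cdx2 passed the filter through the control library alone. Ccnd1 and Myc, cell cycle and growth genes often listed as WNT targets, were not called at 2573 against 3894 and 641 against 594 counts, and are named after their values were seen.

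6 naive pluripotency genes known to be repressed by TCF7L1 had a median log2 ratio of 0.51. Tbx3 was called higher at 2.20-fold (2.04 to 2.37), and the other 5 were not called, with Esrrb, Tfcp2l1, Nr5a2 and Nanog above 0 and Klf2 at -0.06. 3 of the 6, Nanog, Esrrb and Tfcp2l1, are also among the stem cell markers below. Those 10 markers had a median log2 ratio of 0.37, with 9 above 0. Over all genes entered, 4.68% were called higher. Whether the level of Tcf7l1 had a part in these ratios was not tested.

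**Figure D5:**
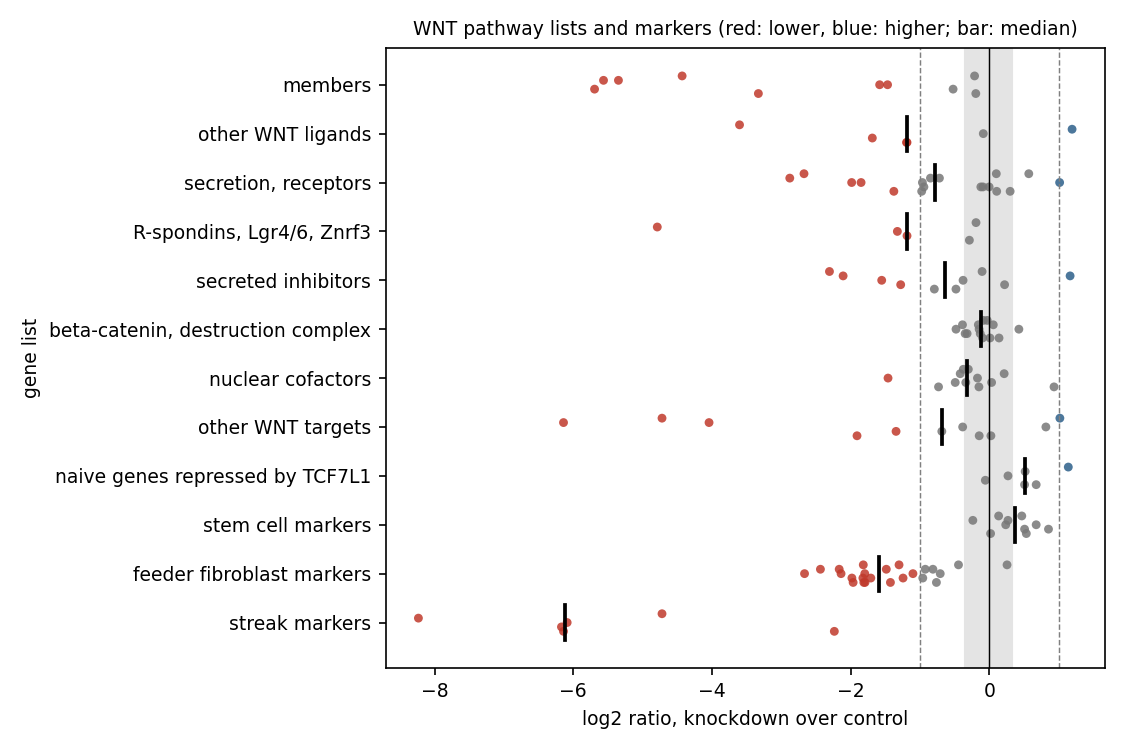
Log2 ratio, knockdown over control, for all 10 members and for the genes of 8 WNT pathway lists and 3 marker lists that reached 1 CPM in a library. Points are genes, coloured red when called lower and blue when called higher, black bars are medians (none is drawn for the members), the grey band spans the quartiles of all entered genes and dashed lines mark 2-fold. The destruction complex genes sit near 0 and the streak markers far to the left.

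Feeder and streak markers that reached 1 CPM were mostly lower, as the members were, whereas primitive endoderm and macrophage markers went both ways. Over all genes entered, 9.48% were called lower and 4.68% higher. Of 24 feeder fibroblast markers 17 were lower and none higher, none was at 0 in either library, and their summed level was 537 CPM in the knockdown against 1676 in the control library, 3.12 times as much in the control. The log2 ratios of these feeder markers ran from -2.66 to 0.26. Wnt5a, Wls, Ror1, Sfrp2, Dkk2, Lef1, Tcf7l1 and Tcf7l2, picked here without a fixed rule, had fold differences between 2.43 and 6.37. Those limits are set by the picked genes themselves. Fzd2, Frzb, Sfrp5 and Tnfrsf19, among other pathway genes, fell in the same range. No library of feeder cells alone was available to show which of these genes they transcribe. Of 8 primitive streak markers 6 reached 1 CPM and all 6 were lower. All but Eomes passed that filter through the control library alone, with at most 0.624 CPM in the knockdown library. A gene that enters this way can hardly be called anything but lower, so nothing is read from that count. The list's summed level was 5.82 against 113.5 CPM, with Evx1 at 0 in the knockdown library. T and Mixl1 are also among the further target genes above, and T alone gave 44.0 CPM in the control library. Of 10 primitive endoderm markers 5 were lower and 1 higher, with sums of 98.1 and 101.3 CPM, none at 0, and the higher one was Hnf4a (180 against 61 counts). Of the lower ones, Gata4, Gata6, Sox17 and Foxa2 passed the filter through the control library alone. In this list 7 log2 ratios lay below 0 and 3 above, those of Hnf4a, Lama1 (2088 against 1288 counts) and Sox7 (15 against 6). Among 8 macrophage markers 4 were lower and 1 higher (sums 35.8 and 42.9 CPM), with 4 log2 ratios below 0 and 4 above. Ptprc, Csf1r and Fcgr3 passed the filter through the control library alone and Marco through the knockdown library alone. The higher one, Marco, had 135 counts in the knockdown library and 0 in the control, at least 42.4-fold higher at the floor of 3 counts (interval from 34.0). The 10 markers of embryonic stem cells were all present and none was called, with sums of 3131 and 2286 CPM. The part of feeder, streak or other cells in the members' falls was not tested, and in such bulk libraries fewer cells of a type and less RNA per cell cannot be told apart.

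The knockdown library held 26693282 assigned counts and that of the control 23146210, with medians of 336 and 325 over entered genes. Scaling by total counts moved the median of all entered genes from 0.02 to -0.10 on the log2 scale, and changed no call of a member.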

How the data were processed

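Total RNA was taken with Trizol for TruSeq libraries, per the labels' protocols. The authors deposited raw counts per gene and each gene's length in bases. The submitters' processing notes name the builds mm10 and GRCm38 and the tools Trim Galore, HISAT2, featureCounts and DESeq. Of the versions, annotation release, strand setting and handling of multiply assigned reads, none is stated in the sources used here. Reads shared by overlapping genes or paralogues can be lost or split in such counting.

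Identifiers were matched to GENCODE M21 (GRCm38), which named 46488 of 46983 rows. The 495 unmatched rows took 0.119% and 0.128% of the counts and stayed in the scaling. TMM factors (0.960 for the knockdown, 1.04 for the control library) came from edgeR 4.0.16 in R 4.3.3, and ratios and intervals from Python 3.11.15 with scipy 1.17.1. Ratios carry no pseudocount. Counts of 0 were raised to a floor of 3, and genes with no more than 3 counts in both libraries got no ratio. Genes entered at 1 CPM in either library (15850 genes). The calling code was tested on simulated data. Intervals of pairs of genes are exact conditional odds ratio intervals, and intervals and floors cover counting error only, since PCR duplicates are not separate molecules.

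The members and lists were chosen with earlier results of these data known. Genes named are all members and, from each of 8 pathway lists, up to 4 called genes with the largest change by the nearer bound of their interval, or the 2 most abundant where none was called. Alternatives were size factors of DESeq2 1.42.0, scaling by total counts, TMM on nuclear protein-coding genes, no filter or 5 CPM, fold thresholds of 1.5 and 4, a 99% interval and a prior count of 2.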

Additional observations from a re-analysis of the deposited data

How the results depend on the processing

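Under 9 alternatives, Wnt8a, Dkk1 and Sp5 were called lower each time, and Axin2, Rnf43 and Tcf7 were called in none. Wnt3 and Lgr5 dropped out with a filter at 5 CPM, where they were not entered, and Lef1 and Tcf7l1 at a 4-fold threshold, so that 5 members were called in each case. The 4 alternatives of scaling and prior count, those that can move a ratio, left all 40 member ratios within their counting intervals. Of the other pathway genes 10 were lower and 3 higher with a filter at 5 CPM, and 9 and 0 at 4-fold, while 8 were higher at 1.5-fold, 3 with total-count scaling and 3 with a 99% interval. Over all genes the counts were 728 lower and 330 higher with the 5 CPM filter (main counts 1503 and 742), 2598 and 1817 at 1.5-fold, and 389 and 152 at 4-fold. By raw counts without gene length, the TCF/LEF shares in the control library were 24.6% for Tcf7, 36.8% for Lef1, 23.2% for Tcf7l1 and 15.4% for Tcf7l2, and in the knockdown library 39.2% for Tcf7, 30.4% for Lef1 and 12.7% for Tcf7l2 (added after seeing the data for the genes other than Tcf7l1). No paired analysis was possible because each group has 1 library. The depth leaves Wnt3, Lgr5, Wnt8a and Dkk1 with at most 7 knockdown counts, and of their falls only those of Wnt8a and Wnt3 were compared with each other.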

Other observations

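WNT proteins also act without beta-catenin, through planar cell polarity and calcium signalling. A list of 22 such genes was added after the data had been seen, and all reached 1 CPM. Of these, 6 were lower in the knockdown library and none was higher, with a median log2 ratio of -0.43, against 9.48% lower of all entered genes. The lower ones were Prickle1, a core polarity gene, 5.92-fold (4.42 to 8.07, 54 against 301 counts), Daam2 4.01-fold (1.89 to 9.52), Nfatc1 3.90-fold (2.02 to 8.10), Camk2d 2.81-fold (2.40 to 3.30), Nfatc4 2.54-fold (2.10 to 3.08) and Celsr2 2.49-fold (1.92 to 3.26). Daam2 and Nfatc1 passed the filter through the control library alone. The core polarity genes Vangl2 and Vangl1 had log2 ratios of -0.44 and -0.41 and were not called, and Scrib stood at 0.13. Other uncalled genes lay above 0, among them Nfatc2 at 1.95-fold higher (1.46 to 2.61), Prickle3 at 1.84-fold (1.26 to 2.72) and Dact2 at 1.46-fold (1.26 to 1.69). The feeder markers, 3.12 times as high in the control library, moved in the same direction as these lower genes. The part of feeder cells was not tested, and no library of feeder cells alone shows which of these genes they transcribe.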
